A study of Mus musculus with 20 samples.

Results

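The insulin-like growth factor (IGF) axis was followed gene by gene in cultured renal myofibroblasts from WT and WWP2-/- mice. It was taken as 10 genes fixed by name, which are the ligands *Igf1* and *Igf2*, the receptors *Igf1r* and *Igf2r*, and the binding proteins *Igfbp2* to *Igfbp7*. All 10 of them were among the 20407 genes tested, of 51826 genes in the table. The cells were primary renal myofibroblasts of C57BL/6J mice, grown out of minced kidney pieces without a sort, and poly-A RNA was sequenced from 20 libraries. The groups were WT untreated, WT treated with TGFβ1, WWP2-/- untreated and WWP2-/- treated with TGFβ1, with 5 libraries each. The labels name the knockout "KO" and give no age, dose or duration, and nothing in them says which libraries came from separate mice. *P* values therefore measure the spread between these libraries, part of which may be technical. The knockout is of the whole animal, so the cells that grew out had lacked the ubiquitin ligase WWP2 since before culture.

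IGF1 and IGF2 are secreted growth factors that signal through the tyrosine kinase IGF1R to AKT and MTOR, and IGF2R is a scavenger that carries IGF2 to lysosomes. The binding proteins hold both ligands in the extracellular space, where they block or prolong their action and are cut by proteases such as PAPPA. IGFBP3 and IGFBP5 are known for their part in tissue fibrosis, IGFBP6 prefers IGF2, and IGFBP7 is a low-affinity relative with the same amino-terminal domain. In fibroblasts, several of these genes are known targets of TGFβ1.

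The calls on this axis were between genotypes, not treatments, and fell on 4 of the 10 genes. Of all genes tested, 6.07% were called with TGFβ1 and 0.725% without. The calls on the axis cannot be assigned to genotype alone, since libraries with *Xist*, an RNA of female cells, were unevenly spread over the genotypes. With *Xist* as a covariate, 1 of the 4 genes, *Igfbp6*, stayed called. With TGFβ1, *Igf2*, *Igfbp3*, *Igfbp4* and *Igfbp6* were lower in WWP2-/- cells, and without TGFβ1 *Igf2*, *Igfbp4* and *Igfbp6* were. All untreated calls were lost with the replicate number as a block, and in a fit of the untreated libraries alone. *Igfbp7*, which had the highest mean per kilobase of exon in every group, and both receptors did not pass the test in either comparison when all 20 libraries were fitted. None of the 10 genes was called for TGFβ1 in either genotype. Of the WT libraries, 1 untreated and 1 treated library had *Igfbp3* as low as WWP2-/- libraries. *Igf2* was within the WWP2-/- range in the untreated one (2.10 CPM) and above it in the treated one (3.32 CPM, against at most 2.52 CPM). Both libraries are described before the members.

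The library totals ranged from 47520759 to 73063697 counts, so 3 counts, the limit that a count of 0 allows, came to at most 0.0631 CPM (counts scaled by the library total), counting error only. *Wwp2*, the targeted gene, lay between 46.7 and 61.6 CPM in the 10 WT libraries and between 15.5 and 24.0 CPM in the 10 WWP2-/- libraries, so transcript from the locus was reduced and not absent. *Xist*, which is transcribed from the inactive X chromosome of female cells, reached 1 CPM in 8 of 10 WT libraries and in 3 of 10 WWP2-/- libraries, and 5 libraries held both *Xist* and Y-linked transcripts. The WT libraries without *Xist* were replicate 4 of the untreated and replicate 3 of the treated group. Over 13534 genes with a mean of at least 1 CPM, their nearest libraries were TGFβ1-treated WWP2-/- replicate 5 (*r* = 0.995) and replicate 2 (*r* = 0.979). The WWP2-/- libraries with *Xist* and no Y-linked transcript, untreated replicate 3 and treated replicate 1, were nearest to each other (*r* = 0.996). In these, *Acta2*, the smooth muscle actin that marks myofibroblasts, was at 39.7 and 49.0 CPM, against at least 945 CPM in the WT libraries.

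Genotype and *Xist* status were thus unevenly mixed, and part of the markers of the labelled cell type differed by *Xist* status. All 10 fibroblast markers had a median of at least 1 CPM and none was at 0 in a library, and their summed level ranged from 6514 to 20379.5 CPM in WT, 13396 to 31752 CPM in treated WT, 4418 to 13877 CPM in WWP2-/- and 5162 to 15123 CPM in treated WWP2-/- libraries. With TGFβ1, 2 of the 10 were called lower in WWP2-/- (*Col1a1* and *Col1a2*), and untreated 0 were. In WT, 6 of the 10 were higher in every library with *Xist* than in those without (*Col1a1*, *Col1a2*, *Col3a1*, *Pdgfra*, *Thy1* and *Dcn*), and 4 overlapped. In WWP2-/- cells, 3 were higher with *Xist* (*Pdgfra*, *Thy1* and *Dcn*), 1 was lower (*Col3a1*) and 6 overlapped. The share of all genes that separate by *Xist* status was not computed, so these counts do not set the markers apart from other genes. *Pdgfra*, a receptor of interstitial fibroblasts, was at 61.9 to 161 CPM in WT libraries with *Xist* and at 0.594 and 0.673 CPM in the WT libraries without it. In WWP2-/- libraries it was at 15.2 to 102 CPM with *Xist* and at 0.602 to 1.91 CPM without. Of the markers of other cells, the 6 macrophage genes summed to 48.7 to 3923 CPM and the 8 tubular genes to 7.91 to 745 CPM over all libraries, with the tubular markers *Cdh1*, *Krt8*, *Slc34a1* and *Umod* at 0 in some libraries. Median macrophage sums were 774 CPM in WT, 113 CPM in treated WT, 435 CPM in WWP2-/- and 863 CPM in treated WWP2-/- libraries. Median tubular sums were 252, 57.1, 229 and 246 CPM in that order. The group ranges overlapped, and edgeR called none of the macrophage or tubular genes tested between genotypes. The sums of the 6 pericyte and mesangial genes ranged from 41.3 to 530.0 CPM, of the 5 endothelial genes from 6.21 to 164 CPM, of the 5 mesothelial genes from 13.8 to 108 CPM and of the 4 podocyte genes from 45.8 to 311 CPM. *Lrrn4* and *Upk1b* (mesothelium) and *Nphs1* (podocyte) were at 0 in some libraries. With TGFβ1, edgeR called 2 of 5 endothelial genes (*Kdr* and *Tek*), 1 of 6 pericyte and mesangial genes (*Itga8*) and 1 of 4 mesothelial genes tested (*Wt1*). All were lower in WWP2-/- cells, where 6.07% of all genes tested were called. Untreated, *Tek* was called lower, where 0.725% of all genes were called. No podocyte gene was called in either comparison. In bulk RNA, fewer cells of a type and less RNA per cell cannot be told apart. The part of cell makeup or of sex in the differences below was not tested. Each called difference below is given with *Xist* as a covariate and without the 4 libraries named above. These 4 were picked after their values were seen, and the WT pair had *Igfbp3* as low as the knockout and *Igf2* within or just above its range. Fits without them are therefore no independent check. They keep 8 WT libraries, all with *Xist*, and WWP2-/- libraries of which 7 lack it, so genotype and *Xist* status nearly coincide.

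The promoters of the 3 binding proteins that were called lower with TGFβ1 are shown beside that of *Igfbp7*, which did not pass the test, because these 3 moved together. Each line holds the 250 bases before the gene's start in the RefSeq annotation (GRCm38.p6), 5′ to 3′ on the gene's strand, and capitals mark the E-box letters CANNTG, which read the same on both strands.
Igfbp3: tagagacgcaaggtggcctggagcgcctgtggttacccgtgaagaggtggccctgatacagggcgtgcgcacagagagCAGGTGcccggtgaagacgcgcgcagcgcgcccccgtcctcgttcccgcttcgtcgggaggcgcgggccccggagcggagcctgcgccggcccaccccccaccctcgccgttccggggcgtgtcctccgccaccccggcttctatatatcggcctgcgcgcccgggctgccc
Igfbp4: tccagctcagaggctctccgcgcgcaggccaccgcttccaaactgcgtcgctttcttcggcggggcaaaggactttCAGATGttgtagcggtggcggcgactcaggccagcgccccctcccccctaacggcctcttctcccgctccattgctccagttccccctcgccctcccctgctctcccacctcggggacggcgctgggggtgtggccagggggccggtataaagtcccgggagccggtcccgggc
Igfbp6: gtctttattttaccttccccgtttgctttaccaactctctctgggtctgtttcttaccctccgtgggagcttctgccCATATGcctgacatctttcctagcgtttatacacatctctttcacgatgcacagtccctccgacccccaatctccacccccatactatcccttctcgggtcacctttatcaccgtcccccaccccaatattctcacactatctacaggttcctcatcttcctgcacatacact
Igfbp7: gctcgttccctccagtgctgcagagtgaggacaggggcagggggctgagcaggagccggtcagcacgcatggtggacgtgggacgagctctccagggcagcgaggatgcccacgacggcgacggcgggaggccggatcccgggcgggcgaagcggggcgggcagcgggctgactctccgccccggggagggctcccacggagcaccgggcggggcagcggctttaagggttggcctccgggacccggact
The windows are chr11:7213924-7214173, minus strand, for *Igfbp3*, chr11:99040994-99041243, plus strand, for *Igfbp4*, chr15:102143936-102144185, plus strand, for *Igfbp6*, and chr5:77408046-77408295, minus strand, for *Igfbp7*. *Igfbp3*, *Igfbp4* and *Igfbp6* each had 1 E-box, with its first base 172, 174 and 173 bases before the start, and *Igfbp7* had none in this window. E-boxes did not separate called from uncalled members. Of the members not shown, the uncalled *Igfbp2* (1 in each promoter), *Igfbp5* (1), *Igf1* (1) and *Igf2r* (4) had them, and the uncalled *Igf1r* had none. The called *Igf2* had 2 in 1 promoter and none in its others. An E-box was found in 66.2% of 32851 promoters of the same length, and 1.54% had one that began 172 to 174 bases before the start, a window picked after these positions were seen. The shared position depends on the annotation. The *Igfbp6* window ends at 102144185, upstream of the GENCODE start of 102144362 given below, whereas the *Igfbp3* and *Igfbp4* windows end directly at their GENCODE starts. The letters GGGCGG (GC box, both strands) occurred 4 times before *Igfbp7* and in none of the other windows, against 32.7% of all promoters with at least 1. The Smad element CAGAC, searched on both strands, occurred once before *Igfbp6*, against 42.2% of promoters. TATAAA lay 28 bases before the start of *Igfbp4* and 148 bases before that of *Igfbp6*, against 12.4% of promoters. The GC content was 73.2% for *Igfbp3*, 69.2% for *Igfbp4*, 49.6% for *Igfbp6* and 74.0% for *Igfbp7*, with a median of 52.4% over all promoters. These matches are descriptions of letters, not of binding.

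**Figure D1:**
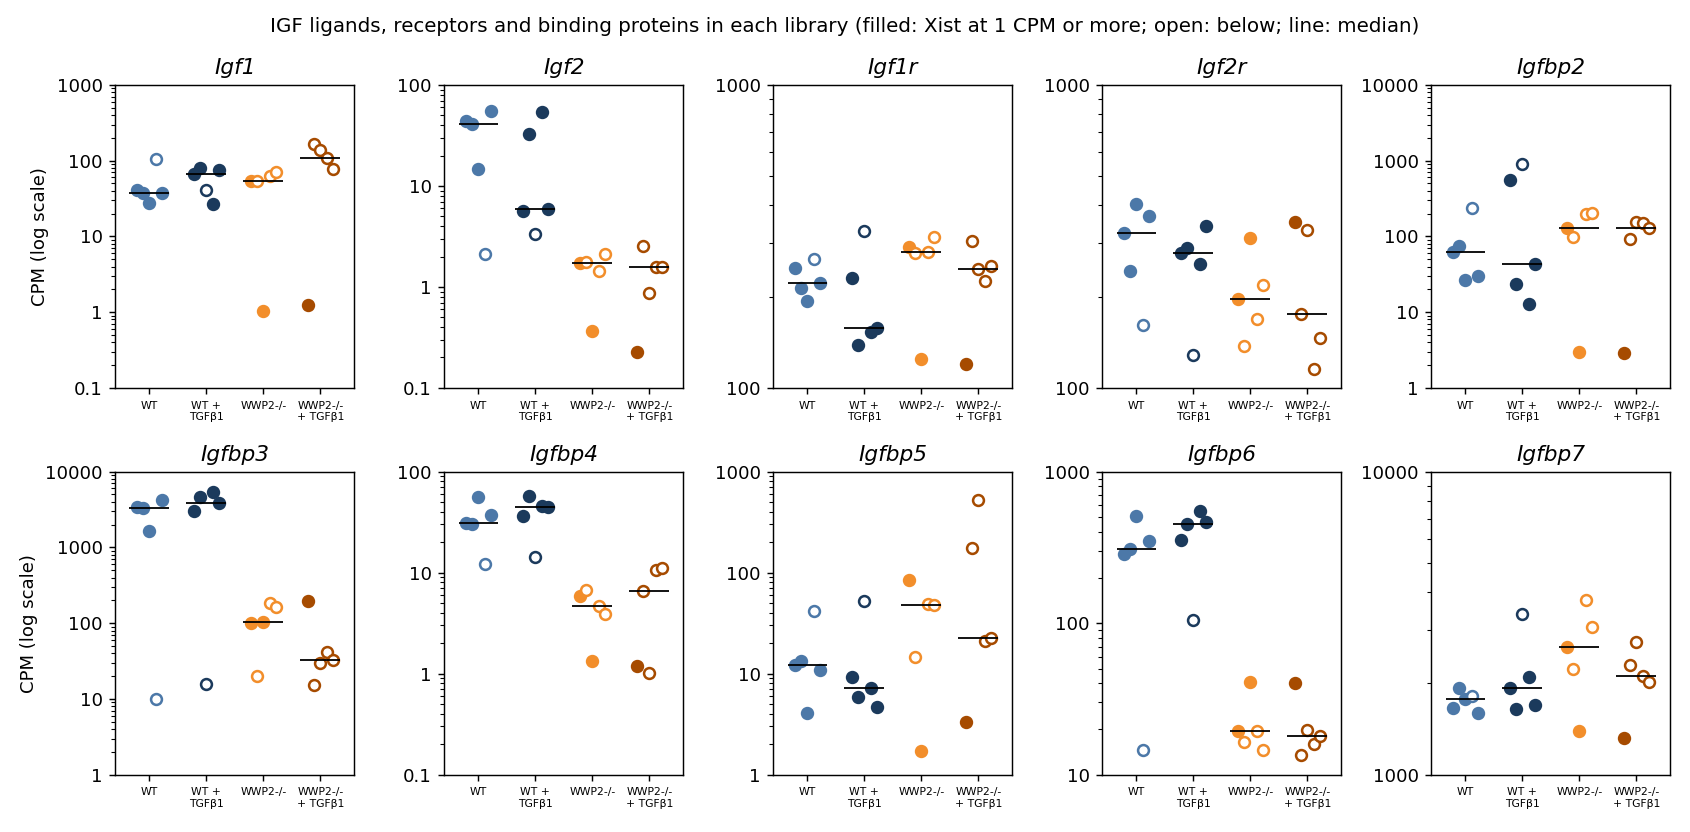
Each panel plots the CPM (log scale) of 1 of the 10 genes in the 20 libraries by group, with filled points for libraries with *Xist* at 1 CPM or more, open points for those below, and a line at the group's median. *Igfbp3*, *Igfbp4*, *Igfbp6* and *Igf2* are low in the WWP2-/- groups, and the open WT points of *Igfbp3*, at 9.95 and 15.9 CPM, lie with them.

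The comparison of WWP2-/- with WT cells asked how loss of WWP2 changes the myofibroblast transcriptome, with and without TGFβ1. With TGFβ1, edgeR's quasi-likelihood test at an adjusted *P* of 0.05 called 6.07% of all genes tested (3.97% lower, 2.1% higher in WWP2-/-) and 4 of the 10 IGF genes, all lower. Without TGFβ1 it called 0.725% of all genes (0.622% lower, 0.103% higher) and 3 of the 10, all lower. The median log2 fold change of the 10 genes was −0.94 with and −0.34 without TGFβ1, against 0.05 and 0.08 over all genes tested. The CPM of the groups did not overlap for 3 of the 10 genes with TGFβ1, where 5.53% of all genes had no overlap, and for 1 without, where 2.82% had none.

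Of the ligands, *Igf1* (ENSMUSG00000020053, chromosome 10: 87858265 to 87937042, plus strand, GRCm38) encodes the growth factor that drives mesenchymal growth. In WT replicates 1 to 5, it was at 41.1, 37.9, 27.6, 107 and 37.2 CPM untreated and at 67.5, 79.5, 41.6, 26.7 and 74.9 CPM with TGFβ1. In WWP2-/- replicates 1 to 5, it was at 54.2, 54.6, 1.03, 62.9 and 71.6 CPM untreated and at 1.23, 166, 140.4, 109 and 78.5 CPM with TGFβ1. The groups overlapped, and the lowest values were those of the WWP2-/- libraries with little *Acta2*. The log2 fold change of WWP2-/- against WT was −0.07 ± 0.82 (SE, n = 5 and 5, edgeR adjusted *P* = 0.976) untreated and 0.63 ± 0.83 (adjusted *P* = 0.687) with TGFβ1. With *Xist* as a covariate the treated difference was −1.29 (adjusted *P* = 0.539), and without the 4 libraries named above it was 0.83 and was called (adjusted *P* = 0.0411).

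*Igf2* (ENSMUSG00000048583, chromosome 7: 142650766 to 142666816, minus strand) encodes the fetal growth factor that is expressed from the paternal allele. In WT cells it was at 43.8, 40.6, 14.7, 2.10 and 55.5 CPM untreated and at 5.70, 32.5, 3.32, 53.4 and 5.95 CPM with TGFβ1. The WWP2-/- values were 1.74, 1.78, 0.370, 1.44 and 2.10 CPM untreated and at 0.229, 2.52, 0.879, 1.58 and 1.56 CPM with TGFβ1. Every treated WWP2-/- library was below every treated WT library, whereas untreated WT replicate 4 lay within the WWP2-/- range. *Igf2* was lower in WWP2-/- cells by a log2 fold change of −4.48 ± 0.93 untreated (SE, edgeR adjusted *P* = 0.0350, exact two-sided permutation *P* = 0.0159) and −4.11 ± 0.92 with TGFβ1 (adjusted *P* = 0.0158, exact permutation *P* = 0.00794, the smallest that 252 arrangements of 5 against 5 libraries give). With *Xist* as a covariate the differences were −4.21 and −3.79 and neither was called (adjusted *P* = 0.118 and 0.110). Without the 4 libraries named above they were −4.59 and −4.14, both called (adjusted *P* = 5.47e-04 and 4.27e-04). The untreated call was lost when any library but WT replicate 4 was left out (adjusted *P* = 0.0661 to 0.119) and held without that one (adjusted *P* = 0.00385).

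*H19*, the imprinted noncoding RNA 72.6 kb away that shares enhancers with *Igf2* and is expressed from the maternal allele, was high and low in broadly the same libraries. It was at 325, 319, 165, 1.19 and 381 CPM in untreated and 82.6, 352, 0.694, 476 and 120.0 CPM in treated WT cells. In the WWP2-/- libraries it did not exceed 1.52 CPM untreated and 2.87 CPM with TGFβ1, and it had no count in untreated replicate 3 and treated replicate 1. The WT libraries without *Xist* were thus as low in *H19* as in *Igf2*. *H19* was lower in WWP2-/- cells untreated (log2 fold change −8.17 ± 1.67, edgeR adjusted *P* = 0.0326) and with TGFβ1 (−7.81 ± 1.64, adjusted *P* = 0.0134). With *Xist* as a covariate the differences of *H19* were −7.83 and −7.43 and neither was called (adjusted *P* = 0.157 and 0.155), and without the 4 libraries named above both were (−8.23 and −7.83, adjusted *P* = 2.48e-05 and 1.22e-05).

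**Figure D2:**
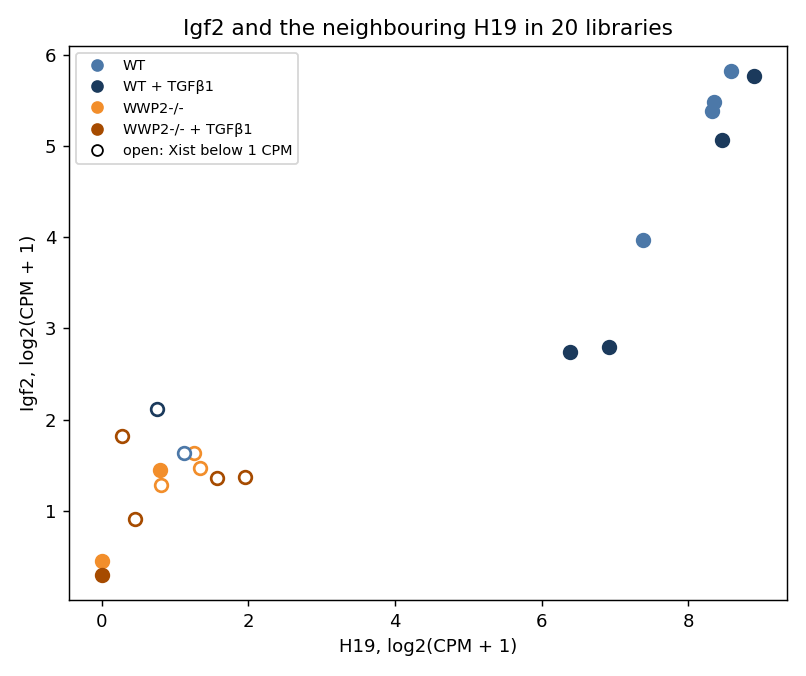
Each point is 1 library, with *H19* on the x axis and *Igf2* on the y axis, both as log2(CPM + 1), coloured by group and open where *Xist* was below 1 CPM. The 8 WT libraries with *Xist* stand at high *H19*, and the other 12 libraries, including both WT libraries without *Xist*, stand together at low levels of both RNAs.

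Both receptors varied little, by 2.75-fold (*Igf1r*) and 3.51-fold (*Igf2r*) between the lowest and the highest library. *Igf1r* (ENSMUSG00000005533, chromosome 7: 67952827 to 68233668, plus strand), the signalling receptor, was at 194 to 266 CPM in WT, 138 to 329.6 CPM in treated WT, 125 to 315 CPM in WWP2-/- and 119.9 to 305 CPM in treated WWP2-/- libraries. It did not pass the test (log2 fold change 0.12 ± 0.25, edgeR adjusted *P* = 0.848, untreated, and 0.09 ± 0.25, adjusted *P* = 0.867, treated), and the 95% interval of the treated difference was −0.39 to 0.57. *Igf2r* (ENSMUSG00000023830, chromosome 17: 12682406 to 12769664, minus strand), the clearance receptor, was at 161 to 405, 129 to 341, 138 to 312 and 115 to 352 CPM in the same order of groups. Its difference was −0.62 ± 0.38 untreated (adjusted *P* = 0.453) and −0.32 ± 0.38 treated (adjusted *P* = 0.654). The lowest *Igf1r* values of the knockout were those of the libraries with little *Acta2*, and the lowest *Igf2r* values of WT were those of the libraries without *Xist*. With *Xist* as a covariate the treated difference turned to −0.33 for *Igf1r* and to 0.33 for *Igf2r*, neither called (adjusted *P* = 0.332 and 0.563). Without the 4 libraries named above, *Igf1r* was called higher in treated WWP2-/- cells (0.42, adjusted *P* = 0.0349) and *Igf2r* lower in untreated ones (−1.05, adjusted *P* = 0.0397), and the other comparison of each was not called (adjusted *P* = 0.237 and 0.0876). The gene body of *Igf2r* overlaps the antisense RNA *Airn*, and the counting is not stated to use strand, but *Airn* had a mean of 1.61 CPM.

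*Igfbp3* (ENSMUSG00000020427, chromosome 11: 7206086 to 7213923, minus strand) encodes the main carrier of IGFs in blood and showed the largest of the 20 genotype differences. In WT cells it was at 3449.6, 3315, 1631, 9.95 and 4261 CPM untreated and at 3061, 4589.6, 15.9, 5324 and 3889 CPM with TGFβ1. In WWP2-/- cells it was at 100.3, 20.05, 104, 187 and 161 CPM untreated and at 195, 15.2, 30.0, 42.2 and 32.4 CPM with TGFβ1. The WT libraries with *Xist* were all at 1631 CPM or more and no WWP2-/- library exceeded 195 CPM, but the WT libraries without *Xist* were lower still, the untreated one below all 5 untreated WWP2-/- libraries and the treated one below 4 of 5. With TGFβ1, *Igfbp3* was lower in WWP2-/- cells (log2 fold change −5.88 ± 1.35, SE, edgeR adjusted *P* = 0.0177, exact permutation *P* = 0.0397). Untreated, the difference of −4.53 ± 1.27 did not pass (adjusted *P* = 0.105, exact permutation *P* = 0.0714), and the Wald test of DESeq2 called it (adjusted *P* = 7.36e-04). With *Xist* as a covariate neither was called (−3.85 treated, adjusted *P* = 0.218, and −1.81 untreated, adjusted *P* = 0.575). Without the 4 libraries named above both were (−7.34, adjusted *P* = 3.57e-06, and −4.86, adjusted *P* = 9.63e-05). Without treated WWP2-/- replicate 4 the treated call was lost (adjusted *P* = 0.0505).

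*Igfbp6* (ENSMUSG00000023046, chromosome 15: 102144362 to 102149511, plus strand), the carrier that prefers IGF2, was at 286, 310.0, 510.2, 14.5 and 347 CPM in untreated and 356, 450.4, 105, 547 and 468 CPM in treated WT cells. WWP2-/- libraries had 19.6, 16.4, 40.7, 19.3 and 14.6 CPM untreated and at 40.3, 13.4, 19.8, 15.8 and 17.9 CPM with TGFβ1. All treated WWP2-/- libraries were below all treated WT libraries, and untreated WT replicate 4 was below all 5 untreated WWP2-/- libraries. *Igfbp6* was lower in WWP2-/- cells untreated (log2 fold change −3.83 ± 0.68, edgeR adjusted *P* = 0.0214, exact permutation *P* = 0.0476) and with TGFβ1 (−4.31 ± 0.70, adjusted *P* = 0.00612, exact permutation *P* = 0.00794). It was the member that stayed called with *Xist* as a covariate, at −2.63 untreated (adjusted *P* = 0.0398) and −3.02 treated (adjusted *P* = 0.0118). Without the 4 libraries the differences were −4.54 and −4.95, called in both. The untreated call was lost without WWP2-/- replicate 1, 4 or 5 or WT replicate 1, 3 or 5 (adjusted *P* = 0.0525 to 0.0902). A fit of the untreated libraries alone also lost it (adjusted *P* = 0.0834). By *Xist* status, treated and untreated libraries together, *Igfbp6* was at 286 to 547 CPM in 8 WT libraries with *Xist* and 14.5 and 105 CPM in the 2 without, against 19.6 to 40.7 CPM in 3 WWP2-/- libraries with *Xist* and 13.4 to 19.8 CPM in 7 without.

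*Igfbp4* (ENSMUSG00000017493, chromosome 11: 99041244 to 99054392, plus strand), an inhibitory carrier that PAPPA cleaves, was at 30.9, 30.0, 56.3, 12.3 and 37.1 CPM in untreated and 36.8, 56.9, 14.2, 46.0 and 44.6 CPM in treated WT cells. In WWP2-/- cells it was at 5.91, 6.72, 1.34, 4.65 and 3.94 CPM untreated and at 1.18, 6.60, 1.01, 10.7 and 11.1 CPM with TGFβ1. It was the gene of the 10 whose groups did not overlap in both comparisons, since even the WT libraries without *Xist*, at 12.3 and 14.2 CPM, were above every WWP2-/- library. *Igfbp4* was lower in WWP2-/- cells untreated (log2 fold change −3.00 ± 0.63, edgeR adjusted *P* = 0.0395, exact permutation *P* = 0.00794) and with TGFβ1 (−2.92 ± 0.63, adjusted *P* = 0.0141, exact permutation *P* = 0.00794). The size of the difference moved little with *Xist* as a covariate, to −2.94 and −2.86, but neither was called (adjusted *P* = 0.0895 and 0.0697). Without the 4 libraries it was −3.04 and −2.90, called in both. The untreated call was lost when any library but WT replicate 4 was left out (adjusted *P* = 0.0626 to 0.117). A fit of the treated libraries alone gave −2.93 and lost the call (adjusted *P* = 0.0507).

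*Igfbp5* (ENSMUSG00000026185, chromosome 1: 72857932 to 72874884, minus strand), a carrier that also binds matrix, went the other way without passing the test. It was at 12.2, 13.4, 4.09, 41.9 and 10.8 CPM in untreated and 9.22, 5.94, 52.2, 7.14 and 4.64 CPM in treated WT cells. The WWP2-/- libraries were at 84.9, 14.6, 1.73, 48.8 and 48.3 CPM untreated and at 3.29, 176, 524, 21.3 and 22.5 CPM with TGFβ1. The groups overlapped, with the WT libraries without *Xist* the highest of WT and the WWP2-/- libraries with little *Acta2* the lowest of all. The log2 fold change was 1.27 ± 1.09 untreated (edgeR adjusted *P* = 0.607) and 3.31 ± 1.17 with TGFβ1 (adjusted *P* = 0.0929, exact permutation *P* = 0.175), and the Wald test of DESeq2 called the treated difference (adjusted *P* = 0.0117). Without the 4 libraries it was 4.73 (adjusted *P* = 0.00193), and with *Xist* as a covariate 1.83 (adjusted *P* = 0.386). It was also called without treated WWP2-/- replicate 1 (adjusted *P* = 0.0449) or without treated WT replicate 3 (adjusted *P* = 0.0342).

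*Igfbp2* (ENSMUSG00000039323, chromosome 1: 72824503 to 72852474, plus strand) is encoded tail to tail with *Igfbp5*, with 5.46 kb between them. It was at 62.4, 74.6, 26.7, 234 and 30.4 CPM in untreated and 559.9, 23.2, 904, 12.8 and 42.7 CPM in treated WT cells. In WWP2-/- cells it was at 129, 97.6, 2.98, 198 and 201 CPM untreated and at 2.91, 93.1, 154, 149 and 129.9 CPM with TGFβ1. The widest spread was in treated WT, where replicates 1 and 3 were far above the others. The difference was 0.56 ± 1.09 untreated (edgeR adjusted *P* = 0.832) and −1.57 ± 1.11 treated (adjusted *P* = 0.406), with 95% intervals of −1.57 to 2.69 and −3.74 to 0.61 on the log2 scale.

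*Igfbp7* (ENSMUSG00000036256, chromosome 5: 77349240 to 77408041, minus strand), secreted by stromal and endothelial cells, varied least among the binding proteins. It was at 1656, 1932, 1775, 1815 and 1597 CPM in untreated and 1939, 1644, 3379, 2094 and 1698 CPM in treated WT cells. In WWP2-/- cells it was at 2646, 2238, 1398, 3768 and 3061 CPM untreated and at 1322, 2307, 2749.5, 2115 and 2017 CPM with TGFβ1. Untreated, 4 of 5 WWP2-/- libraries were above every WT library and replicate 3 was below, and the log2 fold change of 0.52 ± 0.25 did not pass after adjustment (edgeR *P* = 0.0476, adjusted *P* = 0.330, exact permutation *P* = 0.0794). With TGFβ1 it was −0.13 ± 0.25 (adjusted *P* = 0.796), with a 95% interval of −0.61 to 0.35. *Igfbp7* overlaps *Polr2b* on the other strand, which had a mean of 96.0 CPM, so without strand some of its reads cannot be told apart.

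**Figure D3:**
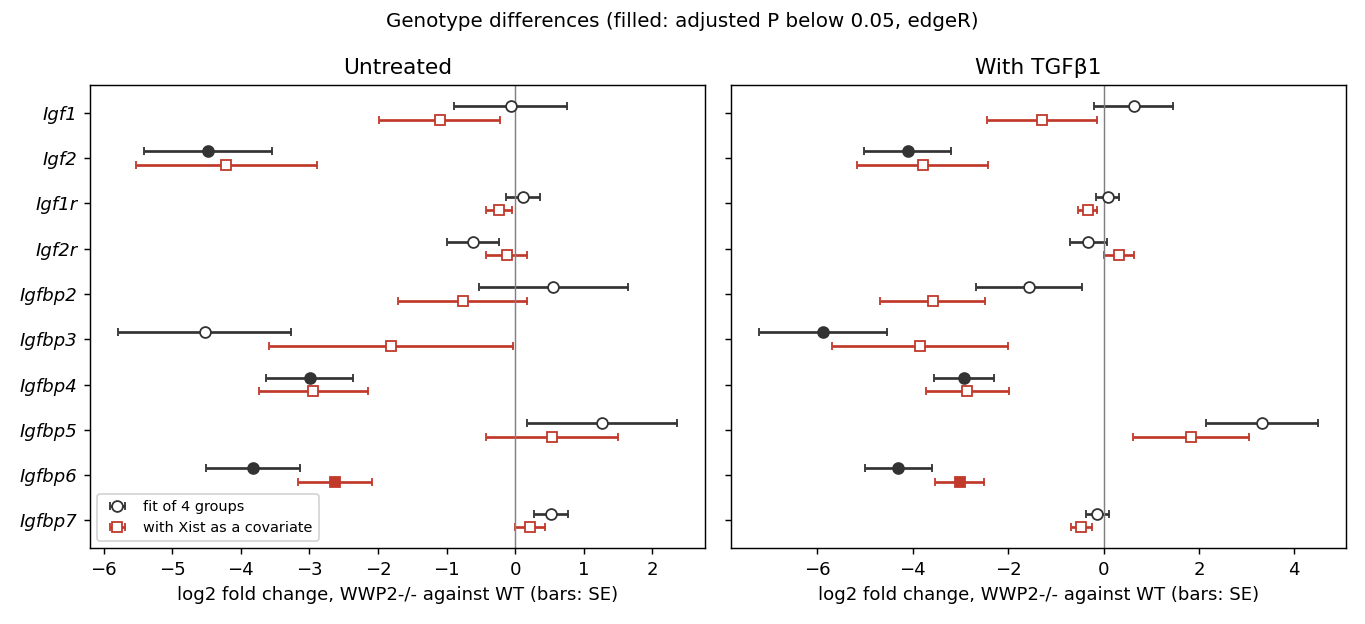
The x axes give the log2 fold change of WWP2-/- against WT with its SE for the 10 genes, untreated (left) and with TGFβ1 (right), from the fit of 4 groups (circles) and with *Xist* as a covariate (squares), filled where the adjusted *P* was below 0.05. Circles are filled for 3 genes untreated and 4 with TGFβ1, all to the left of 0, and squares are filled for *Igfbp6* in both panels.

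Levels between genes were compared as CPM per kilobase of exon. In untreated WT cells, *Igfbp7* (mean 1451 ± 109.6, SD, n = 5) came first, then *Igfbp3* (809 ± 544), *Igfbp6* (264 ± 161) and *Igfbp2* (46.4 ± 46.3), and the ranges of these neighbours overlapped. *Igf2r* (32.3 ± 10.6), *Igf1r* (13.6 ± 1.71), *Igfbp4* (7.55 ± 3.58), *Igf2* (5.48 ± 3.87), *Igf1* (5.06 ± 3.23) and *Igfbp5* (2.74 ± 2.44) followed, and of these neighbours *Igf2r* and *Igf1r* did not overlap. In treated WT cells the first 4 places were the same, at 1779 ± 587, 1079 ± 657, 347 ± 153 and 167 ± 219.5, and every pair of neighbours overlapped. In untreated WWP2-/- cells, *Igfbp7* (2169 ± 734) stood apart from *Igfbp2* (68.0 ± 44.2), *Igfbp3* (36.6 ± 20.7), *Igf2r* (22.2 ± 7.11) and *Igfbp6* (19.9 ± 9.54), whose ranges overlapped. *Igfbp4* (1.02 ± 0.470) and *Igf2* (0.260 ± 0.117) were last. With TGFβ1, *Igfbp7* (1739 ± 429) again stood apart in WWP2-/- cells, followed by *Igfbp2* (57.4 ± 33.8) and *Igfbp5* (24.9 ± 36.7).

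As a share of the summed CPM per exon kilobase of the 6 binding proteins, *Igfbp7* made up 94.3% ± 0.980 (SD, n = 5) in untreated and 93.3% ± 1.51 in treated WWP2-/- cells, against 59.3% ± 18.5 and 52.6% ± 16.8 in WT cells. *Igfbp3* made up 28.3% ± 18.1 and 31.8% ± 18.5 of the sum in untreated and treated WT cells and 1.62% ± 0.868 and 1.43% ± 2.12 in WWP2-/- cells. *Igfbp6* made up 9.66% ± 6.29 and 10.2% ± 4.37 in WT and 1.10% ± 1.06 and 1.21% ± 1.03 in WWP2-/- cells. *Igfbp7* came first in all 10 WWP2-/- libraries and in 8 of 10 WT libraries, and *Igfbp3* in 2. In the WT libraries without *Xist*, *Igfbp7* made up 82.3% and 90.8% of the sum, and in those with *Xist* 41.7% to 59.3%. The shares follow from the levels above and were given no test.

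**Figure D4:**
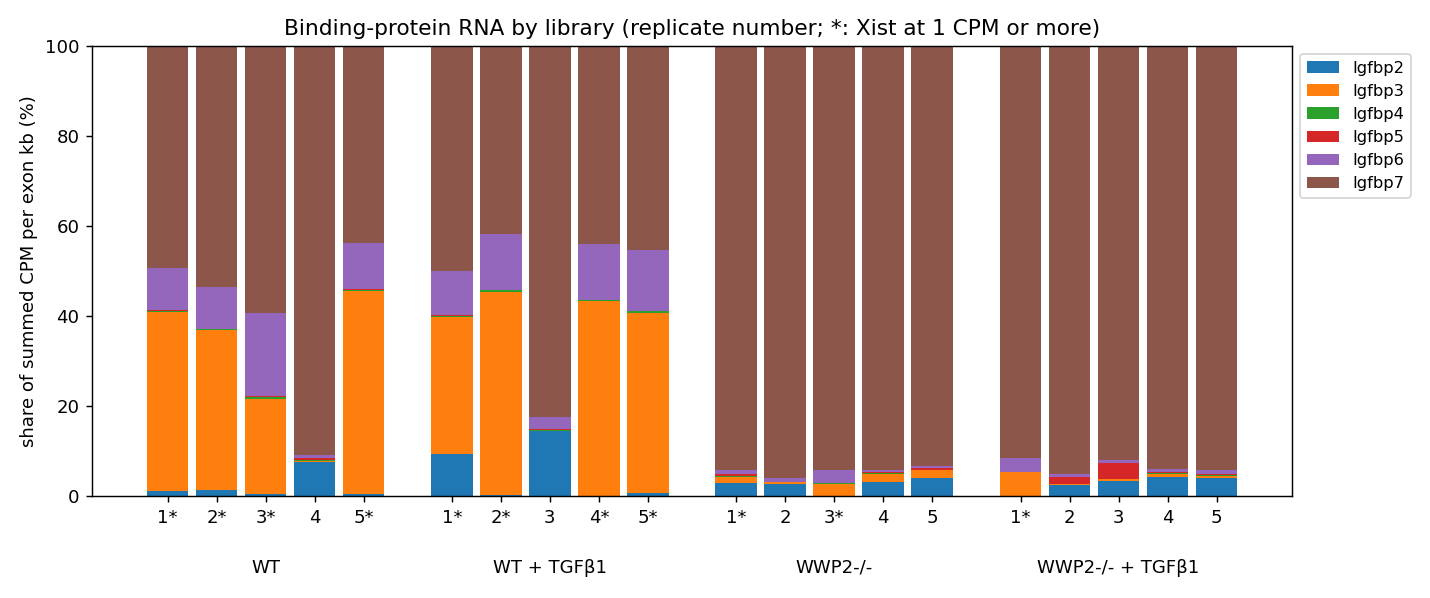
Each bar is 1 library, split into the shares (%) of *Igfbp2* to *Igfbp7* in their summed CPM per exon kilobase, with the replicate number below and an asterisk where *Xist* was at 1 CPM or more. *Igfbp7* takes over 91% of every WWP2-/- bar and 41.7% to 59.3% of the WT bars with an asterisk.

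The response to TGFβ1, the cytokine that drives myofibroblast activation, was compared within each genotype and between genotypes. edgeR called 0 of the 10 genes in WT, in WWP2-/- and for the interaction of genotype and treatment, where it also called 0 of all 20407 genes (0% in each). None of the 10 had an unadjusted *P* under 0.05 in these comparisons, and the Wald test of DESeq2 also called 0 of them, with 27, 49 and 10 calls over all genes. The CPM of treated and untreated libraries overlapped for all 10 genes, where 1.19% of all genes in WT and 0.421% in WWP2-/- had no overlap. Over all genes, 1397, 713 and 1424 had an unadjusted *P* under 0.05. The largest difference within WT was that of *Igfbp2* (log2 fold change 1.90 ± 1.12, edgeR adjusted *P* = 0.832), which rested on the 559.9 and 904 CPM of replicates 1 and 3. Within WWP2-/- it was that of *Igfbp5* (2.05 ± 1.11, adjusted *P* = 0.9999), with 176 and 524 CPM in replicates 2 and 3. For *Igf2*, 3 of 5 treated WT libraries were below 6 CPM and the difference was −0.50 ± 0.80 (adjusted *P* = 0.961). The medians over the 10 genes were 0.36 in WT, −0.06 in WWP2-/- and 0.02 for the interaction, against 0.02, 0.00 and −0.02 over all genes tested. The treatment contrasts share libraries with the genotype contrasts.

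The rest of the pathway was read from 56 other genes, of which 54 were tested, since *Ins1* and *Ins2* were not. With TGFβ1, 5 of the 54 (9.26%, against 6.07% of all genes) were called between genotypes by edgeR, 4 lower and 1 higher in WWP2-/-. Untreated, 2 (3.70%, against 0.725%) were called, both lower. The Wald test of DESeq2, which called 2672 and 743 of all genes, called 14 of the 54 with TGFβ1 and 5 untreated. For TGFβ1 in each genotype and for the interaction, edgeR and the Wald test each called 0 of the 54, and 0, 4 and 0 had an unadjusted *P* under 0.05.

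A list of 11 other genes held relatives and partners of the binding proteins. Of these, *Ccn3*, a matricellular protein, was at 24.8 to 693 CPM in untreated WT and 9.08 to 57.2 CPM in untreated WWP2-/- libraries. With TGFβ1 it was at 37.7 to 889 and 2.27 to 77.2 CPM. The groups overlapped. *Ccn3* was lower in WWP2-/- cells untreated (log2 fold change −4.44 ± 0.96, edgeR adjusted *P* = 0.0432) and with TGFβ1 (−4.19 ± 0.95, adjusted *P* = 0.0168). With *Xist* as a covariate neither was called (−3.45 and −2.99, adjusted *P* = 0.176 and 0.231), and the untreated call was also lost without the WWP2-/- libraries with little *Acta2* (adjusted *P* = 0.0544). Both were called without the 4 libraries named above (−4.69 and −4.34). *Kazald1*, a secreted protein with an IGFBP domain, was at 6.35 to 20.6 CPM in treated WT and 2.89 to 5.22 CPM in treated WWP2-/- libraries without overlap, a log2 fold change of −1.70 ± 0.39 (adjusted *P* = 0.0169). *Kazald1* stayed called with *Xist* in the model (−1.56, adjusted *P* = 0.0474) and without the 4 libraries (−1.68, adjusted *P* = 0.00123). The Wald test called 4 of the 11 with TGFβ1, adding *Ccn5* and *Igfals*. *Igfbp1*, the liver binding protein 3.54 kb from *Igfbp3*, did not exceed 0.291 CPM. The median over the 11 genes was −0.47 with and −0.14 without TGFβ1.

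Of the 9 proteases that cut binding proteins and their inhibitors, *Stc1*, an inhibitor of PAPPA, was called by edgeR with TGFβ1, at 0.769 to 4.66 CPM in WWP2-/- and 0.0541 to 0.694 CPM in WT libraries (log2 fold change 2.84 ± 0.65, edgeR adjusted *P* = 0.0178). Its mean was below the 1 CPM set for naming genes of these lists, so it was singled out after its values were seen. *Stc1* stayed called with *Xist* in the model (2.44, adjusted *P* = 0.0348) and without the 4 libraries (3.90, adjusted *P* = 3.52e-04). The Wald test called 4 of the 9 with TGFβ1, adding *Adam9*, *Htra3* and *Pappa2*. The 9 genes had a median log2 fold change of 0.39 with and 0.63 without TGFβ1. Of the 27 genes of signalling below the receptor, edgeR called 1 with TGFβ1, *Akt2*, a kinase of insulin and IGF signalling. It was at 91.5 to 129 CPM in treated WWP2-/- and 137 to 158 CPM in treated WT libraries without overlap (−0.57 ± 0.11, adjusted *P* = 0.0121), and untreated the difference of −0.29 ± 0.11 did not pass (adjusted *P* = 0.260). The treated call held with *Xist* in the model (−0.46, adjusted *P* = 0.0483), and without the 4 libraries both differences were called (−0.65, adjusted *P* = 1.57e-04, and −0.38, adjusted *P* = 0.0144). The Wald test called 5 of the 27 with TGFβ1, *Akt1*, *Foxo4*, *Grb10* and *Pik3cb* besides *Akt2*, and 1 untreated, *Foxo4*. The genes named from the Wald test were chosen after its calls were seen. The median over the 27 genes was −0.09 with and 0.08 without TGFβ1. Neither *Insr*, the insulin receptor, nor *Insrr* was called, and *Insr* differed by −0.14 ± 0.20 with TGFβ1 (adjusted *P* = 0.707). The medians of the pair were −0.53 with and −0.99 without TGFβ1. The remaining 5 genes were *H19*, *Plagl1*, *Igf2bp1*, *Igf2bp2* and *Igf2bp3*. Of these, *H19* was called in both comparisons, and the medians of the 5 were −1.04 with and −0.57 without TGFβ1.

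The genes most like each member in log2(CPM + 1) over the 20 libraries were named by the highest Pearson's *r*, as a description, among 13521 genes with a mean of at least 1 CPM. For *Igfbp6* they were *Chrd* (0.988), *Srpx* (0.981) and *Cped1* (0.972), and for *Igfbp3* they were *Fbn2* (0.974), *Gabra3* (0.973) and *Ccdc68* (0.970). For *Igf2* they were *Ehd3* (0.974), *Sprr3* (0.964) and *Gpc3* (0.955), and for *Igfbp4* they were *Rassf2* (0.964), *Gas6* (0.961) and *Tmem98* (0.946). For *Igf1r* they were *Syne2* (0.969), *Rassf3* (0.958) and *Oxr1* (0.955), and for *Igf2r* they were *Map1a* (0.957), *Fam198b* (0.923) and *Trim66* (0.920). For *Igf1* they were *Nrp1*, *Exoc4* and *Pik3r3* (each 0.949), and for *Igfbp2* they were *Vdr* (0.962), *Sh3d19* (0.951) and *Lrrc75b* (0.944). For *Igfbp5* they were *Klhl1* (0.954), *Kcnk12* (0.951) and *Wnt5a* (0.942), and for *Igfbp7* they were *Abracl* (0.926), *Gm48529* (0.917) and *Nup107* (0.901). The libraries share genotype, treatment and *Xist* status, and for *Igfbp3* they fall into separate clusters of high and low levels, so these values are not independent of the comparisons above. For *Igf2* and *Igfbp6* some libraries lay between high and low levels. Treated WT replicates 1 and 5 had 5.70 and 5.95 CPM of *Igf2*, and treated WT replicate 3 had 105 CPM of *Igfbp6*.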

How the data were processed

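Poly-A RNA of 20 libraries was sequenced as paired-end reads. The authors aligned these to GRCm38 with STAR and counted them per gene on exons with featureCounts, whose strand setting and version are not given in the sources used here, and the deposited values are raw counts. Groups and replicate numbers came from the sample labels. Gene names, positions and exon lengths came from GENCODE M21 on GRCm38, which named 51633 of 51826 genes. CPM values were computed on library totals (47520759 to 73063697 counts, median 55863325.5), and 16652 genes had no count. Precision is limited by the spread between libraries, not by depth. No pair of libraries was identical.

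The 20407 genes that reached 5 counts in 5 or more libraries were fitted with edgeR 4.0.16 in R 4.3.3 by TMM normalization and the quasi-likelihood test, as 4 groups without a block, with Benjamini-Hochberg adjustment over all genes tested and a threshold of 0.05. The SE is the log2 fold change divided by the square root of F. Single genes were also compared by an exact two-sided permutation of mean log2(CPM + 1). The alternatives were the Wald test of DESeq2 1.42.0 (the test of the study), its size factors, other filters, a replicate block, *Xist* as a covariate, a fit of the compared groups alone and each library left out. Leaving out the libraries with discordant *Xist* was chosen after seeing the data, as were the alternatives for called genes of the pathway lists. The procedure was also run on simulated counts that lacked the *Xist* and *Acta2* differences between libraries seen here. That run therefore does not show how reliable the calls are in these libraries.

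The 10 genes, the pathway lists and the marker lists were chosen with earlier results of these data known. All 10 were named. Of the pathway lists, called genes with a mean of at least 1 CPM were named, up to 6 per comparison, and for likeness the 3 genes with the highest *r* among those with a mean of at least 1 CPM. Protein sequences were not used here. A list of TGFβ1 response genes is not reported here.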

Additional observations from a re-analysis of the deposited data

Results flagged for a closer look

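In groups of 5 libraries, a value was looked at again where its gap to the nearest library was large for the range of its group on the log2 scale (Dixon's test at 95%), which chance flags in about 1 in 20 groups. Of 40 sets of 1 gene in 1 group, 12 were flagged, and they fell on 5 libraries. In WWP2-/- replicate 3, *Igf1* was at 1.03 CPM against 54.2 to 71.6 CPM in the other 4 libraries, *Igf1r* at 125 CPM against 279.8 to 315 CPM, *Igfbp2* at 2.98 CPM against 97.6 to 201 CPM, and *Igfbp6* at 40.7 CPM against 14.6 to 19.6 CPM. In treated WWP2-/- replicate 1, *Igf1* was at 1.23 CPM against 78.5 to 166 CPM and *Igfbp2* at 2.91 CPM against 93.1 to 154 CPM. In WT replicate 4, *Igfbp3* was at 9.95 CPM against 1631 to 4261 CPM and *Igfbp6* at 14.5 CPM against 286 to 510.2 CPM. In treated WT replicate 3, *Igfbp3* was at 15.9 CPM against 3061 to 5324 CPM, *Igfbp6* at 105 CPM against 356 to 547 CPM, and *Igfbp5* at 52.2 CPM against 4.64 to 9.22 CPM. In WWP2-/- replicate 2, *Igfbp3* was at 20.05 CPM against 100.3 to 187 CPM. The first pair of libraries held *Xist* without Y-linked transcripts and the second pair lacked *Xist*, and the part of this in the values was not tested.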

How the results depend on the processing

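Every called log2 fold change of the 10 genes kept its direction under all alternatives run. With TGFβ1, 4 of the genes were called between genotypes, against 1239 of all 20407 genes. With *Xist* as a covariate 1 was called (630 of all genes), and without both kinds of discordant library 7 were (6506 of all genes). With each library left out in turn, 3 to 5 were called. Untreated, 3 were called (148 of all genes), and 0 with the replicate block or with only the groups compared. With *Xist* as a covariate 1 was called (82 of all genes), and without both kinds of library 5 were (2872 of all genes). With each library left out, 0 to 4 were called (4 without WT replicate 4). The calls on the 10 genes thus rose where calls over all genes rose. The labels do not say that a replicate number marks a shared animal or culture. Deviations of same-numbered libraries correlated between −0.54 and 0.52 over all pairs of groups. Between untreated WT and WWP2-/- libraries they correlated at 0.29, 0.31, 0.47, −0.0044 and 0.21 for replicates 1 to 5, and replicates 1, 2, 3 and 5 matched their own number best, a hint from the data and not from the design. Replicate 4, whose WT library lacked *Xist*, did not. The labels name no pairing, so the libraries were not taken as paired. Whether same numbers mark libraries handled together was not tested. With the replicate block, 670 genes were called with TGFβ1 and 1 untreated.

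Over all genes, the 1239 calls with TGFβ1 became 2672 (Wald test), 790 (no filter), 630 (*Xist*), 569 (groups compared), 3314 (WT libraries without *Xist* left out), 3454 (WWP2-/- libraries with *Xist* and no Y-linked transcript left out), 6506 (both left out) and 464 to 2702 (each library left out). The 148 untreated calls became 743, 82 (*Xist*), 1 (groups compared), 1103, 270, 2872 and 1 to 744. For TGFβ1 in WT, 27 (Wald test) and 1 (*Xist*) were called. In WWP2-/- 49 (Wald test), 130 (both left out) and 0 to 64 (each library left out) were called. For the interaction 10 (Wald test) and 198 (both left out) were called.

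Several uncalled differences changed sign. *Igfbp5* with TGFβ1 in WT turned to 0.0030 (size factors), 0.0037 (Wald test), 0.020 (groups compared) and 0.013 (WWP2-/- libraries left out), and ran from −1.10 to 0.63 with each library left out. The interaction of *Igf1r* turned to 0.0011 (size factors and Wald test), 0.0019 (10 counts in every library), 0.026 (replicate block), 0.17 (WT libraries left out) and 0.15 (both), from −0.20 to 0.16 with each left out. *Igfbp6* with TGFβ1 in WWP2-/- turned to −0.025 (replicate block), −0.0085 (WWP2-/- libraries left out) and −0.0062 (both), from −0.36 to 0.37. The interaction of *Igfbp4* turned to −0.35 (replicate block), from −0.23 to 0.35. With *Xist*, *Igf1* turned to −1.29, *Igf1r* to −0.33 and *Igf2r* to 0.33 with TGFβ1, *Igf1r* to −0.23 and *Igfbp2* to −0.77 untreated, and the interaction of *Igf1* to −0.19. Untreated *Igf1* turned to 0.31 (WT libraries left out), 0.24 (WWP2-/- libraries left out) and 0.62 (both), from −0.26 to 0.35. Treated *Igfbp7* turned to 0.024 (WT libraries left out) and 0.14 (both), from −0.32 to 0.029, and treated *Igf1r* ran from −0.017 to 0.27. For TGFβ1 in WWP2-/-, the ranges were −0.30 to 0.032 for *Igf1r*, −0.47 to 0.14 for *Igf2*, −0.037 to 0.40 for *Igf2r* and −0.53 to 0.099 for *Igfbp2*, and in WT −0.29 to 0.079 for *Igf2r*. The cause was not tested. CPM on TMM-scaled library sizes moved no level per kilobase by more than 1 SD.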
